A study of Homo sapiens with 6 samples.

Results

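ATF4 and 40 genes that act with it in amino acid supply, transport and tRNA charging were examined in H1975 cells, a human non-small cell lung cancer line with mutant EGFR, before and after exposure to osimertinib (Osi), an EGFR tyrosine kinase inhibitor. The members were taken by symbol from a list that holds ATF4, its partner factors, and genes of the response that it drives, and all 41 were found among the 27216 rows of the deposited expression table. The parental group was 3 samples of H1975 cells at 0 h of Osi, and the adapted group was 3 samples at 72 h of Osi at 1000 nM. The study's list of compounds gives a lower concentration of Osi. Both groups carry the genotype label WT, and the medium is DMEM with 10% FBS per the labels and RPMI with 10% FBS per the study's methods. Per the labels, apoptotic cells were rinsed off with cold PBS before RNA extraction, so that the adapted samples hold the cells that stayed attached. The columns of the parental samples are named for DMSO, and the sources used here do not give the time these cells spent in DMSO or how often the medium was changed for these samples, so exposure to Osi and time in culture cannot be told apart. The labels also describe a digestion of linear RNA with RNase R before library construction, while the study's methods name total RNA. Which of these applies to the deposited values is not known. If linear RNA was digested, the levels given here are those of the RNA that was left. Each group is 1 cell line. The study speaks in general of independent experiments and of technical replicates. Neither its methods nor the labels say which of these the 3 samples of a group are. The p-values therefore measure the spread between these samples, which may be technical.

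ATF4 is a basic leucine zipper (bZIP) transcription factor whose protein is made mainly when the initiation factor eIF2alpha is phosphorylated by one of its stress kinases, an arrangement known as the integrated stress response. The mRNA level of ATF4 is therefore only part of its control, and no protein was measured here. Together with C/EBP family partners, ATF4 binds composite C/EBP-ATF response elements and raises transcription of genes for amino acid synthesis, amino acid uptake and aminoacyl-tRNA synthetases, the enzymes that load each tRNA with its amino acid. In lung cancer cells the pathway is best known for feeding serine, glycine and one-carbon units into nucleotide synthesis.

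Levels are given on the scale of the table, log2(FPKM + 1). FPKM divides the fragments of a gene by its length and by the sequencing of its sample, so that levels of different genes can be set side by side. Differences are the mean of the adapted samples minus the mean of the parental samples on this scale, tested with limma over all 12656 rows with a mean of at least 1 and adjusted by Benjamini-Hochberg, with a threshold of 0.05. All 41 members passed this filter, with means from 1.65 to 7.72, and none of their values was off the 6-decimal grid described in the processing notes. Sequencing depth is unknown from these values, whose linear sums ran from 375342 to 387753, and 13 mitochondrially encoded genes made up 8.07% to 8.66% of that sum in the parental and 9.73% to 12.2% in the adapted samples. Adapted replicate 1 correlated less with the other adapted samples (r = 0.991 with each, across rows) than these did with each other (0.996). All 8 epithelial markers (EPCAM, KRT8, KRT18, KRT19, CDH1, CLDN4, CLDN7 and ELF3) lay between 6.42 and 9.88 in every sample. Of the lung markers, NKX2-1 and NAPSA were expressed and SFTPB and SFTPC were near 0. Among the markers of other cell types, CD3E was at 0 in all 6 samples, no fibroblast marker exceeded 3.28, and CD68, a lysosomal protein, was the 1 leukocyte marker with a mean of at least 1. The summed FPKM of the fibroblast list was 3.04 to 3.17 in parental and 8.60 to 9.33 in adapted cells, of the endothelial list 1.13 to 1.88 and 1.49 to 3.50, and of the leukocyte list 73.9 to 76.3 and 14.6 to 29.6, the last being mostly CD68. On the log2 scale, mean PECAM1 fell from 1.22 in parental to 0.09 in adapted cells, while mean CDH5 rose from 0.21 to 1.71. Both are endothelial markers, and the others of that list, VWF and KDR, were near 0. The part of the markers of other cell types in the results was not tested.

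The genes moved in both directions, with more of them lower than higher in adapted cells. Of the 41 members, 8 passed the threshold with higher and 22 with lower values in adapted cells. Of all rows tested, 30.7% were higher and 26.2% lower. In either direction this was 73.2% of the members and 56.9% of all rows. The stress gene DDIT4, the factors CEBPB and DDIT3 and the alanine transaminase GPT2 fell most, the transporter SLC1A4 and the folate enzyme ALDH1L2 rose most, and ATF4 itself did not pass the threshold. The median difference was -0.20 over the members and 0.028 over all rows. With a difference of at least 0.5 also required, 13 members were lower and 4 higher, while 30.0% of all rows met this in either direction. On this scale 4 members changed by at least 1, all of them lower, a size that 10.5% of all rows reached. Adding 1 understates the change of low genes. In linear FPKM, ALDH1L2 rose 2.17-fold, SLC1A4 rose 2.08-fold and MTHFD2 fell 2.00-fold. The 3 adapted values lay wholly above or wholly below the 3 parental values in 35 members and in 66.3% of all rows. With 3 samples against 3, an exact two-sided permutation test of a single gene cannot give a p below 0.1. Because whole cultures were sequenced, a smaller share of cells with a transcript and less of it per cell cannot be told apart.

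**Figure D1:**
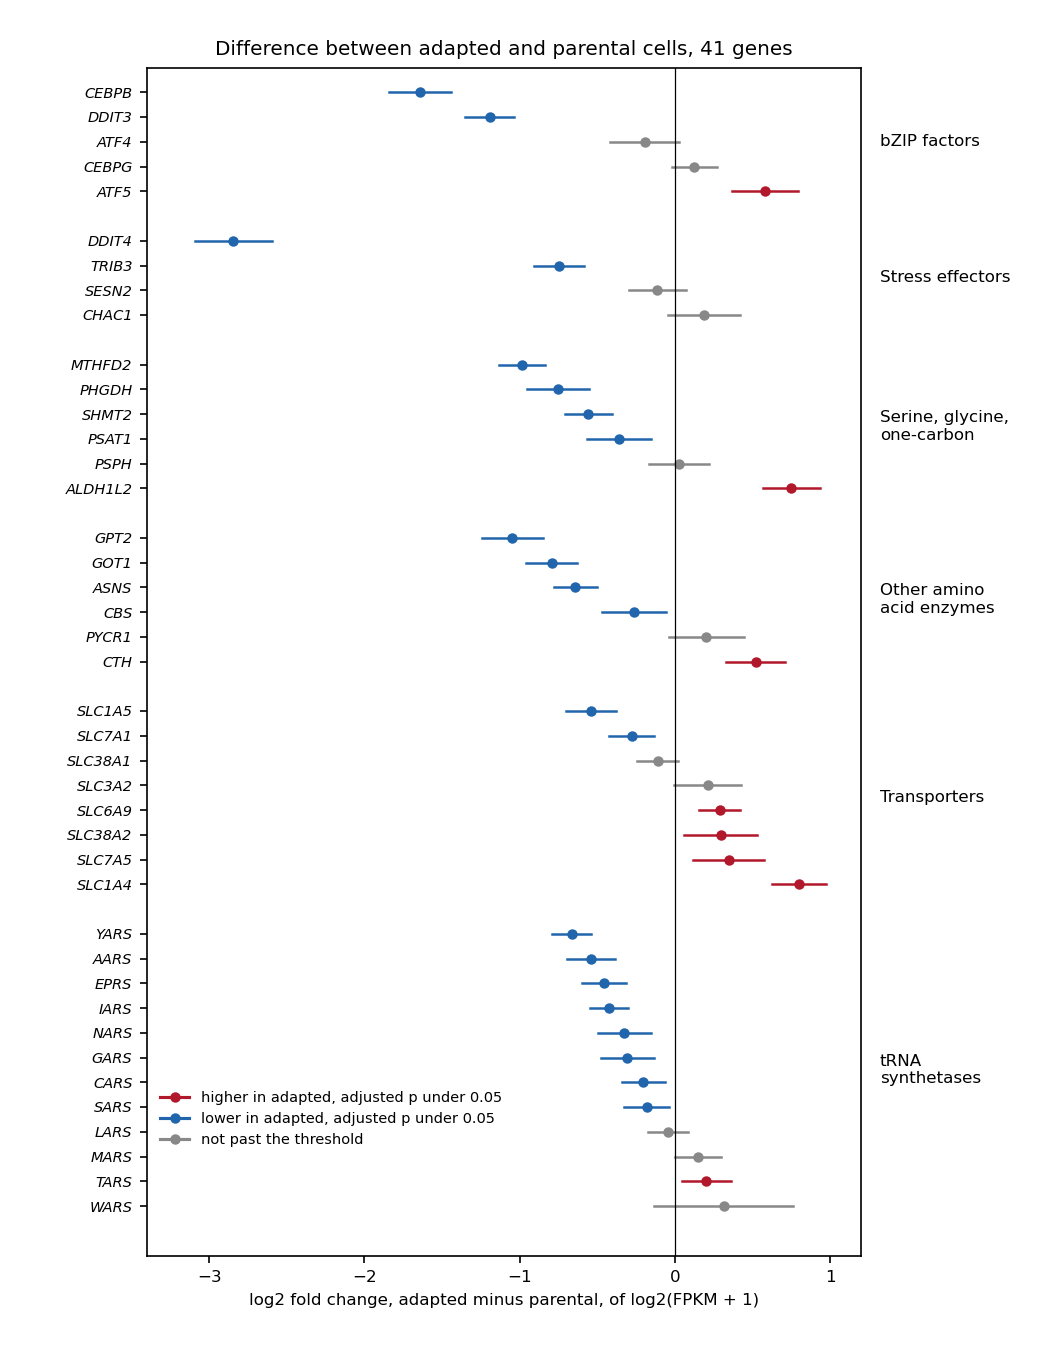
Difference between adapted and parental cells for each of the 41 genes, grouped by role, as the log2 fold change of log2(FPKM + 1) with its 95% interval from limma (3 samples per group). DDIT4 stands at -2.85, the synthetases lie between -0.66 and 0.32, and the genes past the threshold on the higher side reach 0.80.

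The promoters of the members are shown first, because the response element is what ties many of these genes to ATF4. In the RefSeq promoter table (GRCh38.p14, 250 bases before to 50 bases after the first start listed for each gene), 34 of the 41 members had an entry. PSPH, SHMT2, ALDH1L2, PYCR1, GPT2, LARS and YARS had none. The core of the C/EBP-ATF response element, TGATGNAA, was searched on both strands, so that on the strand of the gene it reads either TGATGNAA or TTNCATCA. It was present in 12 of the 34 member promoters (35.3%), in 3.67% of the 27305 promoters of all genes and in 1.64% of the 9636 promoters of named genes tested here. When every listed start of a gene was searched, 16 of the 34 members (47.1%) and 4.46% of all genes held it. The members were listed as genes of the ATF4 response, so these shares are not independent of that choice. The E-box CACGTG, which reads the same on both strands, was in 3 member promoters (8.82%), in 7.43% of all promoters and in 10.3% of those of named genes tested. The following stretches of 30 bases, on the strand of the gene with the match in capitals, are those of the asparagine and aspartate enzymes, of 6 synthetases and of CHAC1, chosen to set genes that fell beside genes that did not.
ASNS (chr7:97872458-97872487, minus strand): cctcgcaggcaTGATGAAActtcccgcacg
GOT1 (chr10:99430804-99430833, minus strand): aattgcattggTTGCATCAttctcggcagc
AARS (chr16:70289675-70289704, minus strand): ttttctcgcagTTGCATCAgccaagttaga
CARS (chr11:3057407-3057436, minus strand): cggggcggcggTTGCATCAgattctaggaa
IARS (chr9:92293692-92293721, minus strand): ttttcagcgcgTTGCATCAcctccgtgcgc
NARS (chr18:57621804-57621833, minus strand): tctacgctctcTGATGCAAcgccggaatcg
MARS (chr12:57488053-57488082, plus strand): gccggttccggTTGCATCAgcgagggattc
TARS (chr5:33440956-33440985, plus strand): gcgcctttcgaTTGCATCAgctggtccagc
CHAC1 (chr15:40953251-40953280, plus strand): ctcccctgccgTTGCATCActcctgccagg
The genes with these matches went in different directions: the first 6 listed fell, TARS rose, and MARS and CHAC1 did not pass the threshold. Over the 12 members with a match (the other 3 being SLC3A2, SLC38A1 and SLC7A1), 1 was higher, 7 were lower and 4 did not pass, with a median difference of -0.24. Over the 22 members with an entry and no match, 6 were higher, 12 lower and 4 did not pass, with a median of -0.23. Of all rows, 56.9% passed the threshold in either direction, against 73.2% of all members. Whether members with and without a match differ was not tested. A match is a description of these letters and not of a bound site.

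Among the 5 bZIP factors, CEBPB and DDIT3 fell and ATF5 rose (3 of 5 called, a share near the 56.9% of all rows). ATF4 and CEBPG did not pass the threshold. CEBPB, a C/EBP factor that dimerizes with ATF4, was 6.39, 6.27 and 6.23 in the parental and 4.80, 4.53 and 4.65 in the adapted samples. The groups were far apart, with a difference of -1.64 (standard error 0.08, adjusted p = 1.07e-05), which in linear terms is 77.7 ± 4.79 against 24.3 ± 2.37 FPKM (SD, n = 3 each). DDIT3, also called CHOP, is the factor that links long-lasting stress to cell death, and it was 5.89, 5.89 and 6.06 in parental and 4.79, 4.76 and 4.71 in adapted cells. All 3 adapted values were more than 1 unit below the lowest parental one, and the difference was -1.19 (standard error 0.07, adjusted p = 1.54e-05). ATF5, which like ATF4 is controlled at translation and is known for its part in the mitochondrial stress response, went from 2.59, 2.48 and 2.52 to 3.27, 2.99 and 3.06. It was the 1 factor that rose, by 0.58 (standard error 0.09, adjusted p = 0.00136).

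ATF4 had the highest mean of all members over the 6 samples, at 7.76, 7.83 and 7.85 in parental and 7.74, 7.70 and 7.42 in adapted cells. The 3 adapted values lay below all parental values, but by little except in replicate 3, and the difference of -0.19 had a 95% interval from -0.41 to 0.03 (adjusted p = 0.116). Without adapted replicate 1 it was -0.25 and past the threshold (adjusted p = 0.0336), and over all alternatives its adjusted p was 0.0336 to 0.279. CEBPG, the C/EBP partner that favors heterodimers with ATF4 at amino acid genes, was 3.52, 3.48 and 3.49 in parental and 3.66, 3.66 and 3.55 in adapted cells. Its difference was 0.13 (95% interval -0.019 to 0.27, adjusted p = 0.118), and it was past the threshold only after rescaling without the mitochondrially encoded genes (adjusted p = 0.0432). In GENCODE v29, the exons of DDIT3 share 355 bases with MARS on the opposite strand (27.2% of its exon bases), and those of ATF5 share 626 bases with NUP62 (21.2%). NUP62 did not pass the threshold (0.02, adjusted p = 0.823). The strand setting of the counting is not given in the sources used here, so reads from such pairs cannot be told apart. In all, 9 members share at least 10% of their exon bases with another annotated gene: beside these 2 they are ASNS, CEBPB, DDIT4, GOT1, MTHFD2, PYCR1 and SLC1A5.

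**Figure D2:**
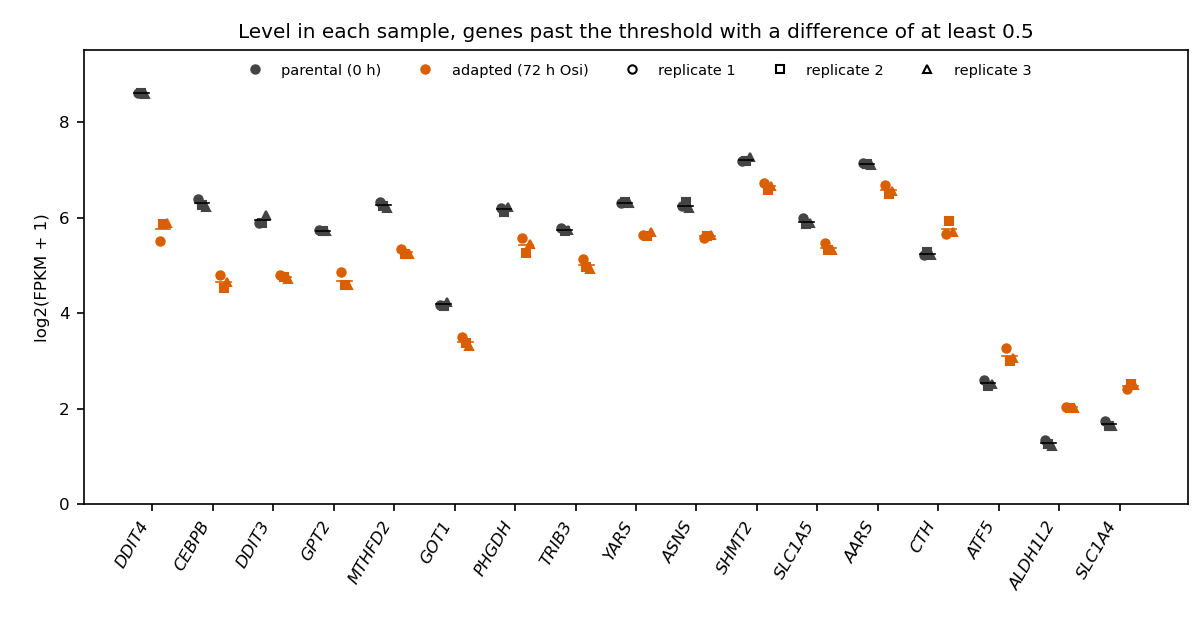
Level of each of the 17 genes that passed the threshold with a difference of at least 0.5, as log2(FPKM + 1) in every sample, with parental samples in gray, adapted samples in orange, a marker shape for each replicate number and a bar at each group mean. In none of the 17 genes do the groups overlap, and DDIT4 goes from above 8.5 to below 6.

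Of the 4 stress effectors, DDIT4 and TRIB3 fell (2 of 4 called, a share below the 56.9% of all rows). SESN2 and CHAC1 did not pass the threshold. DDIT4, or REDD1, an inhibitor of mTORC1 that is induced by ATF4 and also by hypoxia and glucocorticoids, was 8.61, 8.60 and 8.59 in parental and 5.51, 5.87 and 5.89 in adapted cells. The parental values were nearly identical, at the upper end of the members, and the adapted values were far below. The difference of -2.85 (standard error 0.11, adjusted p = 3.02e-06) corresponds to 387 ± 2.45 against 53.4 ± 7.68 FPKM (SD, n = 3 each), 7.25-fold lower, and 44 of the 12656 rows had a lower difference. TRIB3, a pseudokinase that binds AKT and restrains ATF4 in a feedback loop, was 5.79, 5.73 and 5.73 in parental and 5.12, 4.97 and 4.91 in adapted cells, a difference of -0.75 (standard error 0.07, adjusted p = 0.000126). SESN2, a leucine sensor that acts upstream of mTORC1, had overlapping groups at 3.25, 3.11 and 3.16 against 3.03, 2.99 and 3.17 (difference -0.11, 95% interval -0.29 to 0.07). CHAC1, which degrades glutathione and is among the most specific ATF4 targets, was 2.94, 2.89 and 2.96 in parental and 3.26, 2.92 and 3.17 in adapted cells. Adapted replicate 2 lay within the parental range, and the difference of 0.19 (95% interval -0.04 to 0.42, adjusted p = 0.142) passed the threshold only without that sample (0.29, adjusted p = 0.0186).

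Serine is made from a glycolytic intermediate by PHGDH, PSAT1 and PSPH in order, and SHMT2, MTHFD2 and ALDH1L2 carry its one-carbon unit onward in mitochondria. Of these 6 genes, 4 fell and ALDH1L2 rose (83.3% called, against 56.9% of all rows). PSPH did not pass the threshold, and the median difference of the 6 was -0.46. MTHFD2, the mitochondrial folate dehydrogenase, was 6.32, 6.25 and 6.19 in parental and 5.35, 5.23 and 5.23 in adapted cells, a difference of -0.98 (standard error 0.06, adjusted p = 2.86e-05) or 75.4 ± 3.39 against 37.6 ± 1.86 FPKM (SD, n = 3 each). Its exons share 1324 bases with SLC4A5 on the opposite strand (27.2%). PHGDH, the first enzyme of the pathway, went from 6.19, 6.12 and 6.21 to 5.56, 5.26 and 5.45, and SHMT2, which splits serine into glycine and a one-carbon unit, from 7.18, 7.18 and 7.27 to 6.72, 6.57 and 6.67. Each had its highest adapted value below its lowest parental one, with differences of -0.75 (standard error 0.08, adjusted p = 0.000297) and -0.56 (standard error 0.06, adjusted p = 0.000339). PSAT1 fell by 0.36 (adjusted p = 0.011) on the log2 scale. PSPH, the last step of the serine pathway, had overlapping groups (5.84, 5.78 and 5.79 against 6.0, 5.77 and 5.73) and a difference of 0.03 with an interval from -0.16 to 0.22. ALDH1L2, which oxidizes formyl folate to carbon dioxide in mitochondria, was the low gene of the set at 1.34, 1.26 and 1.21 and rose to 2.04, 2.02 and 2.01. The adapted values hardly differed among themselves, and the difference was 0.75 (standard error 0.08, adjusted p = 0.000204), or 1.07 with a pseudocount of 0.1, since adding 1 understates the change of low genes.

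The list of other serine, glycine and folate enzymes also split. Of its 16 genes 12 were tested, of which 4 were higher and 6 lower past the threshold (83.3% called, against 56.9% of all rows). SHMT1, the cytosolic counterpart of SHMT2, was 5.42, 5.43 and 5.48 in parental and 4.53, 4.10 and 3.95 in adapted cells and so differed by -1.25 (adjusted p = 0.000278). TYMS, the enzyme that makes thymidylate, also fell (-0.87), and it was much higher in adapted replicate 1 (5.25) than in replicates 2 and 3 (4.28 and 4.10). Among the genes that rose were MAT2A (0.76), which makes S-adenosylmethionine, and MTR (0.70), which regenerates methionine.

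Of the 6 other enzymes, GPT2, GOT1, ASNS and CBS fell and CTH rose (83.3% called, against 56.9% of all rows). PYCR1 did not pass the threshold. GPT2, the mitochondrial alanine transaminase, was 5.74, 5.72 and 5.71 in parental and 4.85, 4.60 and 4.58 in adapted cells, a difference of -1.05 (standard error 0.08, adjusted p = 6.62e-05). GOT1, the cytosolic aspartate transaminase, was 4.16, 4.15 and 4.24 against 3.49, 3.36 and 3.31, a difference of -0.79 (standard error 0.07, adjusted p = 0.000104). For ASNS, which makes asparagine from aspartate and glutamine and is a classic target of ATF4, the values were 6.23, 6.31 and 6.20 against 5.56, 5.62 and 5.64. The groups of all 3 genes were separated by several times the spread within them, and ASNS fell by 0.64 (standard error 0.06, adjusted p = 0.000118), or from 75.2 ± 3.07 to 47.9 ± 1.38 FPKM (SD, n = 3 each). CTH, which releases cysteine in the last step of transsulfuration, rose from 5.21, 5.27 and 5.22 to 5.65, 5.92 and 5.70, by 0.52 (standard error 0.08, adjusted p = 0.00127). CBS catalyzes the step before it and was 4.35, 4.41 and 4.52 in parental and 4.05, 4.12 and 4.32 in adapted cells, a difference of -0.26 (adjusted p = 0.0365). This call was lost in 7 of 19 alternatives (adjusted p 0.0107 to 0.13 over all of them), among them each fit without a parental replicate and the fits without adapted replicate 1 or 2. CBS is also annotated in a near-identical copy, CBSL, to which the table gives a row of its own at 4.89 ± 0.01 (SD, n = 3) in the parental and 4.25 ± 0.04 (SD, n = 3) in the adapted samples, so that reads may have been split between them. The FPKM of both summed gave 5.65 ± 0.04 and 5.17 ± 0.06 on the log2 scale, a difference of -0.48 without a test. PYCR1, the last enzyme of proline synthesis, had a difference of 0.20 (95% interval -0.04 to 0.44) and a high value in adapted replicate 3 (5.37, against 5.05 and 5.02).

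In the list of other amino acid enzymes, 15 of 19 genes were tested, and 4 were higher and 4 lower past the threshold. This was 53.3% called, near the 56.9% of all rows, and the median difference was -0.015. GLUL, which makes glutamine, went from 1.70, 1.73 and 1.58 to 3.41, 3.61 and 3.64 (difference 1.88). ODC1, the first enzyme of polyamine synthesis, rose by 1.25. ASL (-0.66) and ASS1 (-0.51) of the arginine pathway were among the genes that fell. GOT2, the mitochondrial counterpart of GOT1, was higher by 1.01 as deposited, but its 3 adapted values are off the 6-decimal grid by a constant of 0.66, and with this subtracted the difference was 0.35 (adjusted p = 0.0277).

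**Figure D3:**
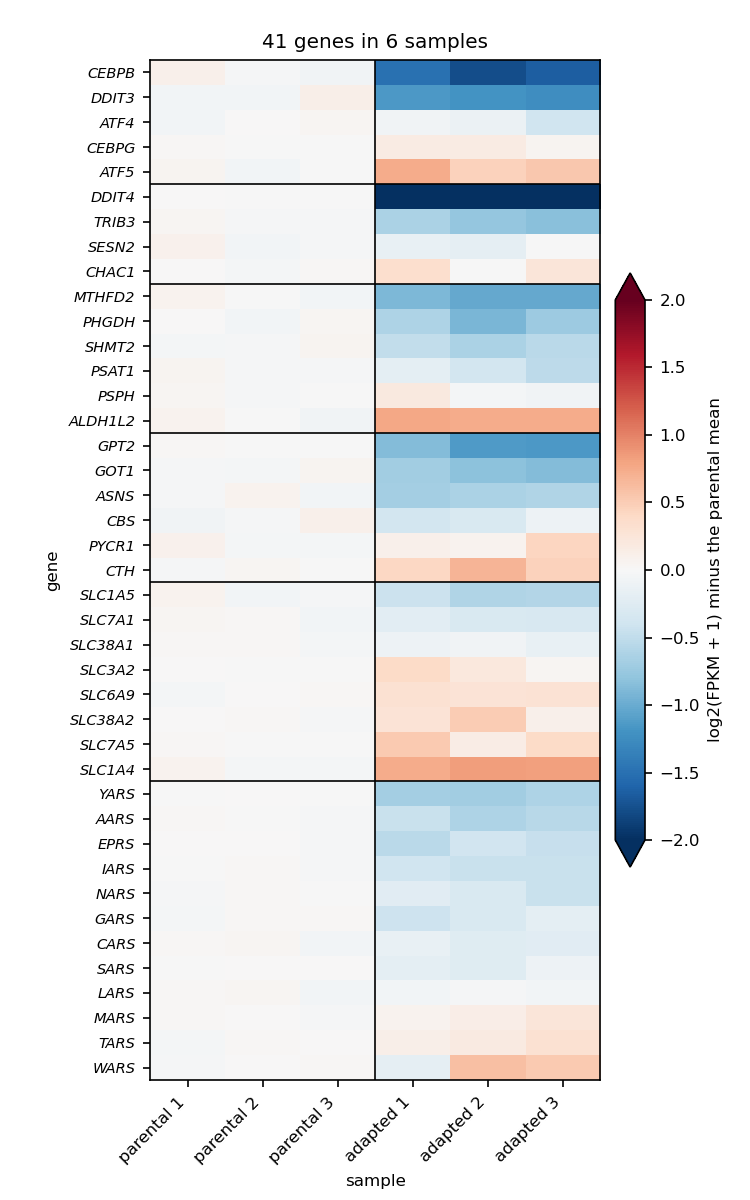
Value of each of the 41 genes in each of the 6 samples, as log2(FPKM + 1) minus the mean of the parental samples, with genes grouped by role and colors cut at 2 units either way (DDIT4 lies beyond). The parental samples are close to 0 throughout, and WARS is lower in adapted replicate 1 and higher in adapted replicates 2 and 3.

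Transporters went both ways. Of 8, SLC1A4, SLC7A5, SLC38A2 and SLC6A9 rose and SLC1A5 and SLC7A1 fell (75.0% called, against 56.9% of all rows). SLC3A2 and SLC38A1 did not pass the threshold, and the median difference of the 8 was 0.25. SLC1A4 (ASCT1) and SLC1A5 (ASCT2) are close relatives that exchange small neutral amino acids, SLC1A5 being the well-known glutamine carrier of tumor cells. SLC1A4 was 1.74, 1.64 and 1.64 in parental and 2.42, 2.51 and 2.49 in adapted cells, a difference of 0.80 (standard error 0.08, adjusted p = 0.000129). In linear FPKM this low gene rose 2.08-fold. SLC1A5 was 5.98, 5.85 and 5.89 against 5.48, 5.31 and 5.33, a difference of -0.54 (standard error 0.07, adjusted p = 0.000544). Despite these opposite changes SLC1A5 remained the more abundant, at 40.5 ± 2.65 FPKM against 4.55 ± 0.19 for SLC1A4 in adapted cells (SD, n = 3 each). SLC7A5 (LAT1), which imports leucine and other large neutral amino acids, and SLC3A2, the heavy chain that carries it to the membrane, had matching parental levels of 7.43 ± 0.02 and 7.44 ± 0.0036 (SD, n = 3 each). In adapted cells SLC7A5 was 7.94, 7.57 and 7.81 and SLC3A2 7.83, 7.65 and 7.49, all above the parental values. The differences were 0.35 for SLC7A5 (adjusted p = 0.0179) and 0.21 for SLC3A2 (95% interval -0.0033 to 0.43, adjusted p = 0.084). SLC7A5 lost its call without any one of the parental samples and with no filter (adjusted p 0.00318 to 0.0642 over all alternatives), and SLC3A2 gained one without adapted replicate 3, after quantile normalization and after rescaling without the mitochondrially encoded genes (lowest adjusted p = 0.0164).

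SLC38A2 (SNAT2), whose transcript is a classic readout of amino acid shortage, was 6.07, 6.08 and 6.04 in parental and 6.34, 6.57 and 6.17 in adapted cells. The rise of 0.30 (adjusted p = 0.0368) did not stay past the threshold without any one of the parental samples, without adapted replicate 2 (0.19) or with no filter (adjusted p 0.00894 to 0.112 over all alternatives). SLC6A9 (GLYT1), the glycine carrier, rose by 0.29 (adjusted p = 0.00387), and SLC7A1 (CAT1), which imports arginine and lysine, fell by 0.28 (adjusted p = 0.0068). SLC38A1 had a difference of -0.11 with an interval from -0.24 to 0.02. Without any one of the parental samples, or with no filter, 2 transporters were higher (SLC1A4 and SLC6A9) and 2 lower (SLC1A5 and SLC7A1). In the list of other amino acid transporters 14 of 21 genes were tested, of which 8 were higher and 2 lower. Their share called was 71.4%, against 56.9% of all rows, and the median was 0.48. SLC7A6, another light chain that pairs with SLC3A2, rose by 1.31, from 3.15, 3.08 and 3.12 to 4.36, 4.44 and 4.49. SLC1A1, a glutamate carrier, rose by 0.96, and SLC38A7, a lysosomal carrier of glutamine and asparagine, by 0.89. SLC7A11, the cystine carrier that ATF4 also induces, fell by 0.92 (3.45, 3.36 and 3.25 to 2.51, 2.46 and 2.35), and SLC16A10 fell by 0.78.

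Of the 12 cytosolic tRNA synthetases, 8 were lower and 1, TARS, was higher past the threshold (75.0% called, against 56.9% of all rows). The median difference was -0.25, and all differences lay between -0.66 and 0.32. YARS, the tyrosine enzyme, was 6.30, 6.32 and 6.30 in parental and 5.63, 5.62 and 5.69 in adapted cells, a difference of -0.66 (standard error 0.05, adjusted p = 7.01e-05). AARS, the alanine enzyme whose promoter stretch is printed above, was 7.14, 7.12 and 7.10 against 6.68, 6.50 and 6.56 (difference -0.54, standard error 0.07, adjusted p = 0.00041). In both genes the groups were well separated. EPRS, which joins the glutamate and proline enzymes in 1 chain, fell by 0.46, IARS fell by 0.42, NARS fell by 0.33 and GARS fell by 0.31, with adjusted p values from 0.00049 to 0.00943. CARS and SARS were lower by less: CARS was 5.43, 5.45 and 5.35 against 5.26, 5.17 and 5.19 (adjusted p = 0.022), and SARS 7.20, 7.21 and 7.21 against 7.01, 6.96 and 7.11 (adjusted p = 0.039). Both groups were apart in all samples, but the CARS call was lost in 5 of 19 alternatives (without parental replicate 1 or 2 and without adapted replicate 2 among them, highest adjusted p = 0.0965) and the SARS call in 7, including the fits without any one parental replicate or without adapted replicate 2 (highest adjusted p = 0.126). TARS rose from 5.83, 5.89 and 5.88 to 5.98, 6.05 and 6.18, by 0.20 (adjusted p = 0.0339), and lost its call in 8 of 19, including those without any one parental replicate and without adapted replicate 2 or 3 (highest adjusted p = 0.118).

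MARS had a difference of 0.15 (95% interval -0.00066 to 0.30, adjusted p = 0.0812), from 6.57, 6.55 and 6.53 to 6.62, 6.69 and 6.79, and was past the threshold without adapted replicate 1 (0.19, adjusted p = 0.0137) and after rescaling without the mitochondrially encoded genes (0.20, adjusted p = 0.0472). LARS, at 5.12, 5.13 and 5.05 against 5.05, 5.07 and 5.05, gave -0.04 with an interval from -0.17 to 0.08. WARS, the tryptophan enzyme, which is also a known interferon-induced gene, was 6.75, 6.78 and 6.80 in parental cells and 6.60, 7.38 and 7.30 in adapted cells. Replicate 1 lay below the parental range and the other adapted samples above it, so that the groups overlapped (difference 0.32, 95% interval -0.13 to 0.76, adjusted p = 0.193), and without adapted replicate 1 the difference was 0.56 (adjusted p = 6.4e-05).

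The synthetases that are not members were divided as well. Over all 20 cytosolic synthetase genes, 4 were higher and 11 lower (75.0% called, against 56.9% of all rows), with a median of -0.17. The list of other cytosolic synthetases and their scaffold proteins had 4 of 11 higher and 4 lower (72.7% called). Its median was -0.09. DARS, the aspartate enzyme, fell by 0.84 on the log2 scale (6.13, 6.14 and 6.05 to 5.34, 5.32 and 5.14), EEF1E1 fell by 0.60 and FARSB fell by 0.48, while AIMP2 (0.42), QARS (0.32) and HARS (0.27) rose. EEF1E1 was 4.16 in adapted replicate 1 and 3.53 and 3.50 in replicates 2 and 3. Of the 17 mitochondrial synthetases, encoded by separate nuclear genes, 4 were higher and 4 lower, with a median of 0.049. Their share called, 47.1%, was below the 56.9% of all rows. Among the genes that fell were IARS2 (-0.44) and FARS2 (-0.28), and those that rose most were RARS2 (0.38), MARS2 (0.34) and HARS2 (0.30). For isoleucine, histidine and arginine the cytosolic and the mitochondrial gene both passed the threshold on the same side (IARS -0.42, HARS 0.27 and RARS 0.24 for the cytosolic genes). For phenylalanine, FARS2 and the cytosolic subunit FARSB were both lower, while the other cytosolic subunit, FARSA, did not pass the threshold (-0.11). For threonine, by contrast, TARS was higher by 0.20 and TARS2 lower (-0.23). Whether these lists differ from one another was not tested.

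Upstream of ATF4, few genes passed the threshold. Of 18 genes for the eIF2alpha kinases and proteins that act on them (GCN1, IMPACT, OMA1 and DELE1), the phosphatase subunits, eIF2 and its exchange factor eIF2B, 1 was higher and 3 lower past the threshold (22.2% called, against 56.9% of all rows). PPP1R15B and PPP1R15A, the regulatory subunits that direct phosphatase to eIF2alpha, both fell. PPP1R15B (CReP), the constitutive subunit, was 5.30, 5.31 and 5.29 in parental and 4.17, 4.13 and 4.13 in adapted cells (difference -1.16, standard error 0.05), and PPP1R15A (GADD34), the stress-induced one and itself an ATF4 target, was 5.82, 5.92 and 5.80 against 5.41, 5.13 and 5.13 (-0.63, standard error 0.09). EIF2S2, a subunit of eIF2, fell by 0.41, and GCN1, which activates the amino acid sensing kinase, rose by 0.20. The 4 kinases (EIF2AK1 to EIF2AK4) did not pass the threshold, EIF2AK1 coming nearest (0.25, adjusted p = 0.0533). EIF2AK3, the kinase PERK, had a difference of -0.23 as deposited and -0.03 with a constant of 0.2 subtracted from its parental values, which are off the 6-decimal grid.

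Of 21 other genes known as ATF4 targets, 17 were tested, of which 3 were higher and 6 lower past the threshold. This was 52.9% called, near the 56.9% of all rows. GDF15, a secreted stress cytokine, was 7.33, 7.27 and 7.30 in parental and 3.89, 3.29 and 3.81 in adapted cells, a difference of -3.64 (standard error 0.15). CEBPD, a C/EBP factor like CEBPB, fell by 1.77 and UPP1, uridine phosphorylase, fell by 1.43. KLHL24 (0.96), JDP2 (0.83) and ADM2 (0.48) rose. Many genes on this list, like DDIT4, CEBPB and CEBPD among the genes above, are also known to answer to other signals, and no list here separates ATF4 from these.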

How the data were processed

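RNA-seq values of 6 H1975 samples (3 parental, 3 adapted) were taken from the 1 table deposited by the authors, whose values are on a log2 scale. The base and the added 1 were read from the values, and the unit was taken as FPKM. The submitters' processing notes name hg38, Bowtie2 2.1.0, STAR and edgeR, while quantifier and annotation are not given in the sources used here. No counts were used, so depth is unknown and limma took the place of the count model named in the study's methods. In 147 of 27216 rows the values of 1 group leave a grid of 6 decimals by 1 constant (0.65 or 0.66 in adapted, 0.2 in parental samples), and they were kept as deposited.

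The unpaired group means were fitted with lmFit and moderated by eBayes with its trend option (limma 3.58.1, run under R 4.3.3) on rows with a mean of at least 1, with Benjamini-Hochberg adjustment over all of them and a threshold of 0.05. Named genes are all members, with values by sample for those past the threshold by at least 0.5, ATF4 and those whose call turned on a setting, and from each related list up to 3 that rose and 3 that fell most, of which some are not reported here. Members and lists were chosen with earlier results of these data known. Alternatives changed the pseudocount, the filter, the scaling, the eBayes options, the block, the threshold and the rows or samples used. Motifs were searched with Python 3.11.15, and exon overlaps were taken from GENCODE v29 (GRCh38). The fit was tested on simulated data, where its share of false calls lay above the nominal level.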

Additional observations from a re-analysis of the deposited data

How the results depend on the processing

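Over 19 alternatives (18 for ATF5, ALDH1L2 and SLC1A4), 27 of the 41 members kept both direction and side of the threshold. A change of direction was seen in PSPH when adapted replicate 1 was left out (-0.057, against 0.0787 without adapted replicate 3) and in LARS when mitochondrially encoded genes were kept out of the rescaling (0.0047), neither of which passed the threshold. Of the 8 members that were higher, 5 were left with no filter, with the filter at a mean of at least 3 (which removes ATF5, ALDH1L2 and SLC1A4) and at a threshold of 0.01, and 4 when a difference of at least 0.5 was required. Leaving out 1 sample gave 5 to 10 members higher, with 5 in each fit without a parental replicate, and 19 to 22 lower. Of the 22 that were lower, 13 had a difference of at least 0.5. The synthetase median of -0.25 went to -0.21 under the same rescaling, and ranged from -0.26 to -0.24 without 1 sample. Without 1 sample the median of all members was -0.23 to -0.19 and that of the serine and one-carbon members -0.52 to -0.42. Of all rows, 7202 were past the threshold, 4532 with the stricter filter, which tests fewer rows, 3798 with the limit of 0.5, and 5778 to 8371 without 1 sample. Same-numbered samples did not deviate together (r = -0.051, -0.031 and -0.020 over rows), so the numbers were not taken as pairs. With the replicate number as a block, 7 members were higher and 20 lower, and 6761 rows were past the threshold. Tests on counts were not run, since the table holds none. Without depth, no counting error can be given for the low genes SLC1A4, ALDH1L2 and ATF5.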
